A study of Mus musculus with 16 samples.

Results

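Output genes of the circadian clock were followed in mouse liver across diet and feeding state. They are Dbp, Tef and Hlf, which encode the PAR bZIP transcription factors, Nfil3, Bhlhe40 and Bhlhe41, Ciart, Rora and Usp2. They form a set named with earlier results of these data known, and were found by symbol through the Ensembl identifiers of the count table, with no threshold on any measured value. All 9 symbols were found among the 46078 genes of the table, and all 9 passed the filter on low counts. The series as a whole compared mouse liver under 2 diets and 2 feeding states.

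The circadian clock of hepatocytes is a transcriptional loop. CLOCK (or NPAS2) and ARNTL (BMAL1) bind E-box elements and activate the Per, Cry and Nr1d genes, whose products in turn repress them or the Arntl gene. Output genes carry this rhythm to metabolism. DBP, TEF and HLF activate genes through D-box elements, and NFIL3 (E4BP4) is a repressor that binds the same elements. BHLHE40 and BHLHE41 (DEC1 and DEC2) compete for E-boxes, CIART (CHRONO) represses CLOCK-ARNTL, RORα activates through the elements on which the NR1D repressors act, and USP2 is a deubiquitinase. Most of these transcripts cycle strongly over the day in liver, so that their level in a sample depends on the hour at which it was taken.

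Livers came from male mice of the strain written C56B6/J in the sample labels (C57BL6/J in the methods), which were put on diet at 8 weeks of age and kept on it for 16 weeks under a cycle of light and dark. The 4 groups were mice on control diet fed ad libitum (CD fed), mice on control diet fasted for 16 h (CD fast), mice on a high-fat diet with 60% of calories from fat fed ad libitum (HFD fed) and mice on that diet fasted for 16 h (HFD fast). Each group held 4 libraries, and none carried a transgene or drug treatment. Poly(A) RNA was sequenced, and levels are given as CPM, which is a gene's count scaled by the size of its library. The hour at which livers were taken is not given in the sources used here, so an effect of that hour and an effect of the group cannot be told apart. Liver was sequenced in bulk, and a change in the number of cells of a type cannot be told apart from a change of RNA per cell.

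Library totals ranged from 41364448 to 57583153 counts, and a count of 3 corresponded to 0.0536 to 0.0767 CPM. Albumin took 5.47 to 11.9% of the counts, and the summed hepatocyte markers ranged from 68792 to 135795 CPM against 0.940 to 2.91 CPM for the T and NK cell markers. A pair of libraries stood apart in these genes. Replicate 1 of CD fed was below the other 3 libraries of its group in 7 of the 9 genes and above them in 2 (Nfil3 and Rora), and replicate 1 of CD fast was below in 8 of 9. Over all genes tested the pair was not singular. Replicate 1 was the lowest of its group in 32.1% (CD fed) and 27.0% (CD fast) of genes, but replicate 4 was so in 31.5% (HFD fed) and 31.6% (HFD fast) and replicate 2 of CD fast in 28.1%. Results are given with all 16 libraries and then without this pair. The pair was chosen after its values were seen, partly for the values of these very genes, and the results without it are therefore a description and not an independent test.

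Adjusted p values come from edgeR's quasi-likelihood test over all 15075 genes tested, with Benjamini-Hochberg adjustment and a threshold of 0.05, and standard errors (SE) are those of the log2 fold change. With all libraries, 2 of the 36 changes of these genes between groups passed. Bhlhe40 fell with fasting in CD, and Nfil3 was lower in HFD than in CD among fasted mice. In fasting on CD, 1 of 9 genes passed where 25.2% of all genes did. In fasting on HFD, none of the 9 passed against 8.86% of all genes, with 2 of 9 at an unadjusted p under 0.05. There DESeq2 called 1 (13.3% of all genes) and limma-voom 0 (8.56%). In HFD against CD among fed mice, none passed against 7.50%, with 6 of 9 at an unadjusted p under 0.05. For this comparison DESeq2 called 4 (11.7% of all genes) and limma-voom 1 (7.28%). In HFD against CD among fasted mice, 1 of 9 passed against 7.70%. The diet by fasting interaction was called for none of the 9 against 2.59% of all genes, with 1 at an unadjusted p under 0.05. Neither DESeq2 (7.07% of all genes) nor limma-voom (2.37%) called any of the 9 for it. The share of all genes at an unadjusted p under 0.05 is not given here, so those counts are a description only. Without the pair of CD libraries the counts were 5 of 9 for fasting in CD (background 17.6%), 1 for fasting in HFD (9.33%), 5 for HFD in fed mice (5.79%), 1 for HFD in fasted mice (4.77%) and 0 for the interaction (2.06%, 6 at an unadjusted p under 0.05).

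**Figure D1:**
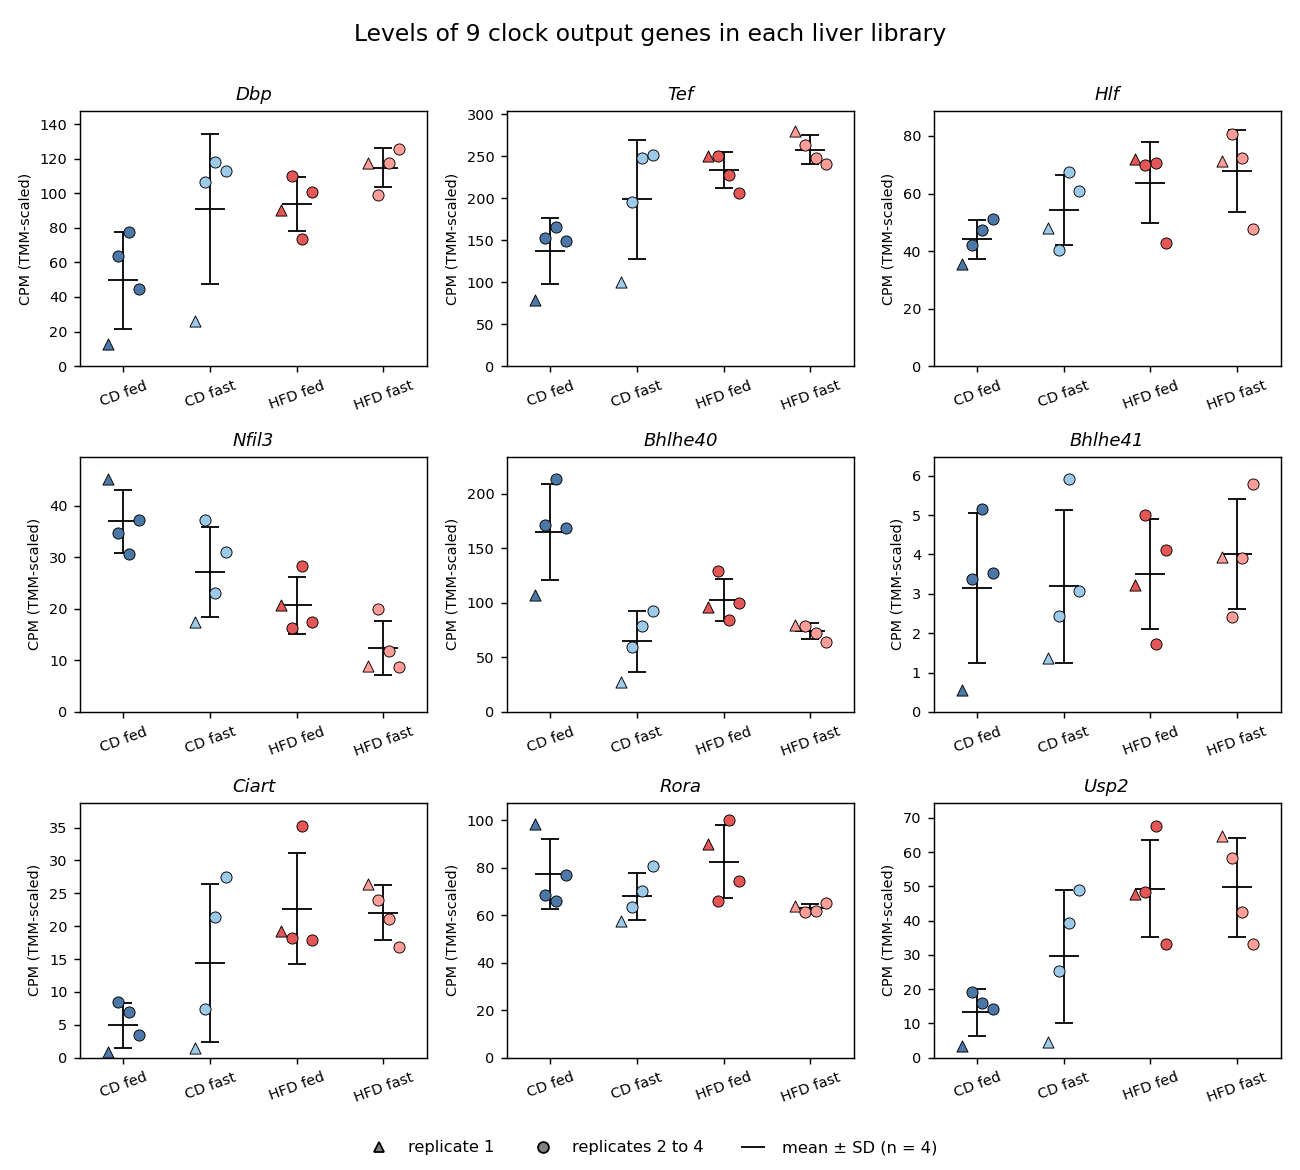
TMM-scaled CPM (y axis, linear, from 0) of each of the 9 genes in the 16 liver libraries, by group on the x axis. Triangles are replicate 1, circles replicates 2 to 4, and bars the mean ± SD of 4 libraries. In CD fed and CD fast the triangle is the lowest point for Dbp, Tef, Bhlhe40, Bhlhe41, Ciart and Usp2.

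Levels between the genes were compared per kilobase of merged exon (CPM per kb). Over the 16 libraries Dbp averaged 29.2 CPM per kb, Tef 26.3, Bhlhe40 21.6, Nfil3 12, Hlf 8.60, Usp2 7.35, Ciart 7.09, Rora 5.56 and Bhlhe41 0.516. Neighbours in this order overlapped in their ranges over libraries, except Rora (4.40 to 7.66) and Bhlhe41 (0.0814 to 0.879). The spread between libraries also differed widely between the genes. The highest library was 40.3 times the lowest for Ciart, 20.7 times for Usp2, 10.8 for Bhlhe41 and 9.79 for Dbp, but 2.26 times for Hlf and 1.74 times for Rora. Counts per library ranged from 30 (Bhlhe41) to 12869 (Tef).

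Promoters were searched for the elements named above on both strands. RefSeq windows of 300 bases (250 before the start and 50 from it, GRCm38.p6) were found for 8 of the 9 genes, and Bhlhe40 had none. The E-box was written CACGTG, the D-box TTATGTAA or TTACGTAA, and the ROR core TAGGTCA, and none of these letter strings contains another. The E-box letters occurred in 7.15% of all 32851 windows, the D-box letters in 1.06% and the ROR core in 2.61%. Ciart had 3 E-boxes, Tef 1 in each of its 2 windows and Bhlhe41 1, whereas Nfil3 had 1 ROR core. None of these letter strings was found in the windows of Dbp, Hlf, Rora and Usp2. The Usp2 window (chr9:44084670-44084969) lies inside the annotated gene, which begins at 44067021. The sequence before that first start of Usp2 was therefore not searched. A match is a description of the letters and was not tested for binding here.

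Dbp (ENSMUSG00000059824, GRCm38 chr7:45705088-45710203, plus strand) encodes the founding PAR bZIP activator. In CD fed its level was 12.8, 63.8, 77.6 and 44.9 CPM in replicates 1 to 4. In CD fast it was 25.8, 107, 118 and 113 CPM. HFD fed livers held 90.3, 110.1, 73.8 and 101 CPM and HFD fast livers 117, 99.1, 118 and 125 CPM. Means in that order were 49.8 ± 28.0 (SD, n = 4), 90.9 ± 43.7, 93.7 ± 15.6 and 115 ± 11.2 CPM, and none of the 4 comparisons between groups passed the threshold. The log2 fold change was 0.87 (SE 0.44, adjusted p = 0.165) with fasting in CD and 0.91 (SE 0.44, adjusted p = 0.235) with HFD in fed mice, with 95% intervals of -0.07 to 1.81 and -0.03 to 1.86. Replicate 1 of CD fast was far below the other 3 libraries of its group, and replicate 1 of CD fed was also the lowest of its own. Without this pair the change with fasting in CD was 0.86 (SE 0.18, adjusted p = 0.00563), with no overlap between groups (17.9% of all genes were likewise higher without overlap in these libraries), and that with HFD in fed mice was 0.61 (SE 0.17, adjusted p = 0.0487). The change with fasting in CD was 0.55 (adjusted p = 0.311) without replicate 1 of CD fed alone and 1.18 (adjusted p = 0.0357) without replicate 1 of CD fast alone. That with HFD in fed mice passed in 0 of the 16 fits that left out a single library (0.59 to 1.21, adjusted p from 0.126 to 0.384). With fasting in HFD the change was 0.29 (SE 0.44, adjusted p = 0.715), and with HFD in fasted mice it was 0.34 (SE 0.44, adjusted p = 0.670). The latter was 0.027 without replicate 1 of CD fast alone and 0.49 without replicate 3 of CD fast alone. The exons of Dbp share 539 bp, 18% of their length, with Sphk2 on the opposite strand, and the strand setting of the counting is not given in the sources used here. Sphk2 was not called in any comparison. Its log2 fold change was 0.38 upon fasting in CD (unadjusted p = 0.0553) and 0.11 upon fasting in HFD. Between diets it was -0.19 in fed and -0.46 in fasted mice (unadjusted p = 0.0239 for the latter, adjusted p = 0.128).

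Tef (ENSMUSG00000022389, chr15:81802421-81826863, plus strand) encodes a second activator of this family and followed Dbp closely. Each of its promoters has a single E-box, shown in capitals in the 250 bases before the start.
Tef, first promoter, chr15:81802423-81802672, plus strand: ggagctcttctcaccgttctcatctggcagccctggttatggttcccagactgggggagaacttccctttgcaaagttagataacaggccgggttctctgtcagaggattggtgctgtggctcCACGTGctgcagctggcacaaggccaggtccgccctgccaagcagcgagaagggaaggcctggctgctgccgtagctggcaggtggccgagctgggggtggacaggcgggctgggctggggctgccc
Tef, second promoter, chr15:81811164-81811413, plus strand: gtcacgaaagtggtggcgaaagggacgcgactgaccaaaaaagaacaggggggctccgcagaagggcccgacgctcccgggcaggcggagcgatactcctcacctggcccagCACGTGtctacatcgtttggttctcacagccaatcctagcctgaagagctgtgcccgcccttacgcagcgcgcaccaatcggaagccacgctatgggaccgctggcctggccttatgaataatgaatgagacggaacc
The E-boxes begin at -127 and -138 from the respective start. Tef was at 78.9, 153, 166 and 149 CPM in CD fed and at 99.8, 195, 248 and 251 CPM in CD fast. On HFD it was at 249.7, 249.9, 227 and 206 CPM in fed and at 279, 263, 248 and 240.5 CPM in fasted mice. All HFD fed libraries were above all CD fed libraries, which 7.22% of all genes also showed, and the fasted groups overlapped. The log2 fold change with HFD in fed mice was 0.77 (SE 0.24, adjusted p = 0.0669), or 1.71-fold, and with fasting in CD 0.54 (SE 0.24, adjusted p = 0.119). Without the pair of CD libraries the former was 0.59 (SE 0.11, adjusted p = 0.00674) and the latter 0.57 (SE 0.11, adjusted p = 0.00462). Without replicate 1 of CD fed alone neither passed, at 0.58 (adjusted p = 0.147) and 0.35 (adjusted p = 0.294), and without replicate 1 of CD fast alone both did, at 0.77 (adjusted p = 0.0170) and 0.76 (adjusted p = 0.0110). The change with HFD in fed mice also passed with DESeq2 (adjusted p = 0.0202), under total count scaling (0.0377) and when only the fed groups were fitted (0.0457), but not with limma-voom. In HFD livers fasting changed Tef by 0.14 (SE 0.24, adjusted p = 0.747) and with HFD in fasted mice by 0.38 (SE 0.24, adjusted p = 0.349). The ratio of Dbp to Tef had group medians between 0.359 and 0.463, and its lowest values, 0.162 and 0.259, were those of replicate 1 of CD fed and of CD fast.

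Hlf (ENSMUSG00000003949, chr11:90336536-90390895, minus strand), the other PAR bZIP activator, varied much less. It was at 35.7, 42.1, 47.4 and 51.3 CPM in CD fed, at 48, 40.4, 67.6 and 60.7 CPM in CD fast, at 71.9, 69.8, 70.6 and 42.7 CPM in HFD fed and at 71.3, 80.7, 72.2 and 47.6 CPM in HFD fast. Replicate 4 was the lowest library of both HFD groups, and every comparison overlapped. The largest of the 4 fitted changes of Hlf was 0.53 (SE 0.20, adjusted p = 0.117) with HFD in fed mice, and it was 0.45 (SE 0.22, adjusted p = 0.249) without the pair of CD libraries. Leaving out replicate 4 of HFD fed alone gave 0.68 (adjusted p = 0.0421).

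Nfil3 (ENSMUSG00000056749, chr13:52967209-52981073, minus strand) encodes the repressor that occupies the D-box in place of the PAR bZIP activators. Its promoter has a ROR core on the minus strand of the window at -12 to -6, in capitals below as its complement.
Nfil3, chr13:52981040-52981289, minus strand: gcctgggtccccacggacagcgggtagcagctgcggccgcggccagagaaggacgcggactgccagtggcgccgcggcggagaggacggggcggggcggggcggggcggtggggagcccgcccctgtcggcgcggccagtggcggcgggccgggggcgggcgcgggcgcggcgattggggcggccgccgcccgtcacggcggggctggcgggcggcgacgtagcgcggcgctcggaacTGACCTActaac
Nfil3 was at 45.2, 34.8, 30.6 and 37.2 CPM in CD fed, at 17.4, 37.2, 23.1 and 31.1 CPM in CD fast, at 20.7, 16.2, 28.3 and 17.4 CPM in HFD fed and at 8.89, 19.9, 11.8 and 8.66 CPM in HFD fast. Group means were 36.9 ± 6.16, 27.2 ± 8.72, 20.7 ± 5.46 and 12.3 ± 5.24 CPM (SD, n = 4), the reverse of the order of the Dbp and Tef means. Without the pair the order of the Nfil3 means was kept, whereas the mean of Dbp was higher in CD fast (113 CPM) than in HFD fed (93.7 CPM). Among fasted mice Nfil3 was 2.21-fold lower in HFD than in CD (log2 fold change -1.14, SE 0.28, adjusted p = 0.0219), although replicate 2 of HFD fast, at 19.9 CPM, was above replicate 1 of CD fast. This call was lost in 3 of the 16 fits that left out a library, with the highest adjusted p, 0.0709, without replicate 4 of HFD fast. The change was between -1.47 and -0.96 over those 16 fits. The call was also lost when only the fasted groups were fitted (log2 fold change -1.14, adjusted p = 0.0806), a fit that called 0.623% of all genes. Without the pair of CD libraries the change was -1.30 (SE 0.27, adjusted p = 0.0212) and the groups no longer overlapped, as in 9.63% of all genes lower in those libraries. In fed mice all HFD libraries were below all CD libraries, as in 8.51% of all genes, and the change was -0.84 (SE 0.27, adjusted p = 0.0710). It was -0.72 (SE 0.27, adjusted p = 0.138) without the pair. The change passed with DESeq2 (adjusted p = 0.0266), with limma-voom (0.0481) and when only the fed groups were fitted (0.0294). With fasting Nfil3 changed by -0.44 (SE 0.27, adjusted p = 0.248) in CD and by -0.75 (SE 0.27, adjusted p = 0.102) in HFD, and neither passed in the main fit. The change in CD was -0.28 without replicate 1 of CD fast alone and -0.17 without the pair. That in HFD passed without replicate 2 of HFD fast alone (-1.09, adjusted p = 0.0189) and with DESeq2 (adjusted p = 0.0486). The interaction for Nfil3 was -0.30 (SE 0.38, adjusted p = 0.691). In the fasted comparison the endothelial markers Pecam1 and Stab2 and the stellate marker Reln were higher in HFD and the hepatocyte marker Tat was lower, and the part of cell make-up in the Nfil3 difference was not tested. Without the pair Reln and Tat of these markers still passed, and Pecam1 and Stab2 did not. The hepatocyte marker Cps1 was then also called as lower. The median log2 fold change of the 5 hepatocyte markers was -0.56 with all libraries and -0.55 without the pair.

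Ratios of Dbp and of Tef to Nfil3 set an activator of the D-box beside its repressor within each library, and are given as a description with no test. The ratio of Dbp to Nfil3 was 0.283, 1.83, 2.54 and 1.21 in CD fed and 1.48, 2.86, 5.13 and 3.64 in CD fast. On HFD it was 4.37, 6.79, 2.60 and 5.79 in fed and 13.2, 4.99, 9.92 and 14.5 in fasted mice. Every HFD fed library was above every CD fed library, and the fasted groups overlapped only through replicate 2 of HFD fast. The ratio of Tef to Nfil3 had medians of 4.21, 6.91, 12 and 24.3 in the order CD fed, CD fast, HFD fed and HFD fast. These ratios are of CPM, which do not correct for gene length, so they compare groups and not the abundance of both transcripts.

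**Figure D2:**
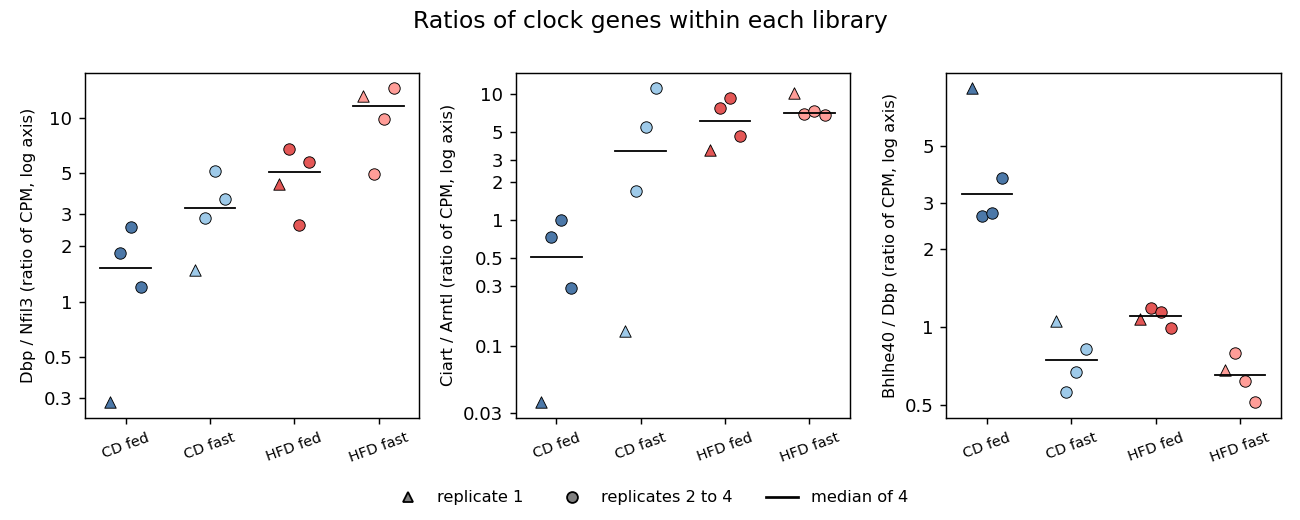
Ratio of CPM within each library (y axis, log scale) for Dbp over Nfil3, Ciart over Arntl and Bhlhe40 over Dbp, by group on the x axis, with the median of 4 libraries as a line. The Dbp over Nfil3 medians run from 1.52 in CD fed to 11.6 in HFD fast, and replicate 1 of CD fed (triangle) is the lowest point of the Dbp over Nfil3 and Ciart over Arntl ratios and the highest of Bhlhe40 over Dbp.

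Bhlhe40 (ENSMUSG00000030103, chr6:108660629-108666925, plus strand) encodes an E-box repressor that also responds to hormonal and metabolic signals. It was the only one of the 9 genes that passed with fasting in CD. Its level was 107, 171, 213 and 168 CPM in CD fed and 27.2, 59.3, 78.9 and 92.7 CPM in CD fast, so that every fasted library was below every fed library, as in 12.3% of all genes. The fall was 2.55-fold (log2 fold change -1.35, SE 0.28, adjusted p = 0.00314), passed in all 16 fits that left out a library (-1.59 to -1.10) and was -1.26 (SE 0.18, adjusted p = 0.000571) without the pair of CD libraries. HFD livers held 96.3, 129.5, 84.3 and 99.8 CPM in the fed and 80.0, 78.7, 72.3 and 63.9 CPM in the fasted state. All fasted HFD libraries were again below all fed ones, as in 8.66% of all genes, but the change, -0.48 (SE 0.28, adjusted p = 0.304), did not pass. The difference between the fasting effects was 0.88 (SE 0.40, adjusted p = 0.227), so a smaller effect on HFD was not shown. In fed mice Bhlhe40 was 1.61-fold lower on HFD (log2 fold change -0.69, SE 0.28, adjusted p = 0.151), with replicate 2 of HFD fed above replicate 1 of CD fed, and -0.84 (SE 0.16, adjusted p = 0.010) without the pair, when the groups did not overlap, as in 12.1% of all genes. In fasted mice the diets differed by 0.19 (SE 0.28, adjusted p = 0.709). With fasting in CD the Kupffer cell markers Clec4f and Adgre1, the endothelial markers Pecam1 and Stab2, the stellate marker Reln and the hepatocyte marker Ttr were also lower. Ttr was the only one of 5 hepatocyte markers that passed, and the median log2 fold change of the 5 was 0.14. Without the pair only Pecam1 and Ttr of these markers still passed, as did Bhlhe40. The summed Kupffer cell markers ranged from 209 to 357 CPM in CD fed and from 139 to 216 in CD fast, with none of the 5 at 0.

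Bhlhe41 (ENSMUSG00000030256, chr6:145858243-145865558, minus strand), its close relative, was the least abundant of the 9. CD fed livers held 0.547, 3.38, 5.14 and 3.54 CPM and CD fast livers 1.37, 2.43, 5.91 and 3.07 CPM. HFD fed livers held 3.22, 4.99, 1.72 and 4.11 CPM and HFD fast livers 3.93, 2.40, 3.92 and 5.80 CPM. All 4 groups overlapped, and no comparison came near the threshold (adjusted p from 0.741 to 0.977), with 95% intervals as wide as -1.09 to 1.14 for fasting in CD. A change of the size seen for Bhlhe40 with fasting in CD is outside that interval. A stretch of 1280 bp of its exons, 19.0% of their length, lie opposite Gm43909, which was not in the table.

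Ciart (ENSMUSG00000038550, chr3:95878503-95882251, minus strand) encodes a repressor of CLOCK-ARNTL and had the widest range of the 9. Its promoter holds 3 E-boxes within the 116 bases before the start, a number found in 29 of all 32851 windows (0.0883%).
Ciart, chr3:95882229-95882478, minus strand: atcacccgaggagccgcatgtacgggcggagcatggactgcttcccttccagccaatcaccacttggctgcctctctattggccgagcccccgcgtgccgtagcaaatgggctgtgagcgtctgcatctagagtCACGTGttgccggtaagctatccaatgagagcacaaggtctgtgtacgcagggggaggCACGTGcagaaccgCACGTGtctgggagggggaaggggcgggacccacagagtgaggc
The capitals mark the E-boxes, which begin at -116, -58 and -44. Ciart was at 0.875, 8.46, 7.01 and 3.41 CPM in CD fed and at 1.51, 7.37, 21.4 and 27.5 CPM in CD fast. HFD livers were at 19.3, 18.3, 35.2 and 17.9 CPM when fed and at 26.4, 24.0, 21.0 and 16.8 CPM when fasted. Every HFD fed library was above every CD fed library, and CD fast spanned both. The change with HFD in fed mice was 4.59-fold (log2 fold change 2.20, SE 0.67, 95% interval 0.78 to 3.62) and just missed the threshold (adjusted p = 0.0575). It was 1.86 (SE 0.42, adjusted p = 0.0210) without the pair of CD libraries. It also passed with DESeq2 (adjusted p = 0.0255), under total count scaling (0.0436) and when only the fed groups were fitted (0.0402), but not with limma-voom. With fasting in CD the change was 1.55 (SE 0.66, adjusted p = 0.0977), and 1.58 (SE 0.43, adjusted p = 0.0240) without the pair. Neither of these changes passed without replicate 1 of CD fed alone (adjusted p = 0.111 for diet and 0.198 for fasting), and both passed without replicate 1 of CD fast alone (0.0192 and 0.0204). On HFD fasting changed Ciart by -0.04 (SE 0.63, adjusted p = 0.979), a value that turned positive under total count scaling (0.0075). The interval of that change, -1.37 to 1.30, does not exclude a change of more than 2-fold in either direction. The interaction was -1.59 (SE 0.91, adjusted p = 0.340), and -1.63 (SE 0.56, adjusted p = 0.139) without the pair.

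Usp2 (ENSMUSG00000032010, chr9:44067021-44095627, plus strand), the deubiquitinase, is a strongly rhythmic output of the liver clock and tracked Ciart in these libraries. It was at 3.26, 19.3, 15.9 and 14.3 CPM in CD fed, at 4.50, 25.4, 39.4 and 49.0 in CD fast, at 47.9, 48.2, 67.7 and 33.2 in HFD fed and at 64.6, 58.2, 42.6 and 33.2 in HFD fast. Again all HFD fed libraries were above all CD fed libraries. The difference was 3.73-fold (log2 fold change 1.90, SE 0.56, adjusted p = 0.0504) and stood at the threshold. It passed, at 1.59 (SE 0.28, adjusted p = 0.00654), without the pair of CD libraries. It also passed with the replicate number as a block (adjusted p = 0.0483), with DESeq2 (0.0197) and when only the fed groups were fitted (0.0331). Total count scaling (0.0362), upper quartile scaling (0.0462) and no count filter (0.0468) gave the call too, and limma-voom did not. Fasting in CD changed Usp2 by 1.17 (SE 0.55, adjusted p = 0.134) with all libraries and by 1.2 (SE 0.29, adjusted p = 0.0140) without the pair. As for Ciart, neither change passed without replicate 1 of CD fed alone (adjusted p = 0.0957 for diet and 0.270 for fasting) and both passed without replicate 1 of CD fast alone (0.0120 and 0.0207). On HFD the fasting change was 0.01 (SE 0.54, adjusted p = 0.992), which was -0.00016 without the pair, and in fasted mice the diets differed by 0.75 (SE 0.54, adjusted p = 0.406).

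Rora (ENSMUSG00000032238, chr9:68653786-69388246, plus strand), the activating counterpart of the NR1D repressors, varied least. The CD fed libraries held 98.5, 68.4, 65.9 and 76.7 CPM and the CD fast libraries 57.6, 63.3, 70.2 and 80.5 CPM. On HFD there were 89.8, 65.9, 100.1 and 74.1 CPM in the fed and 63.7, 61.3, 61.9 and 65.1 CPM in the fasted libraries. The HFD fast libraries lay within 61.3 and 65.1 CPM, below all HFD fed libraries. The change was -0.39 (SE 0.14, adjusted p = 0.101), and -0.40 (SE 0.12, adjusted p = 0.0482) without the pair of CD libraries. The pair is in neither group of this comparison, and leaving it out changed the shared spread, the scaling and the set of genes tested (15228 in place of 15075). With fasting in CD the change was -0.19 (SE 0.14, adjusted p = 0.355), which turned to 0.018 without the pair. Between diets Rora differed by 0.09 (SE 0.14, adjusted p = 0.754) among fed mice. Among fasted mice the difference was -0.11 (SE 0.14, adjusted p = 0.674), which turned to 0.056 under total count scaling.

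**Figure D3:**
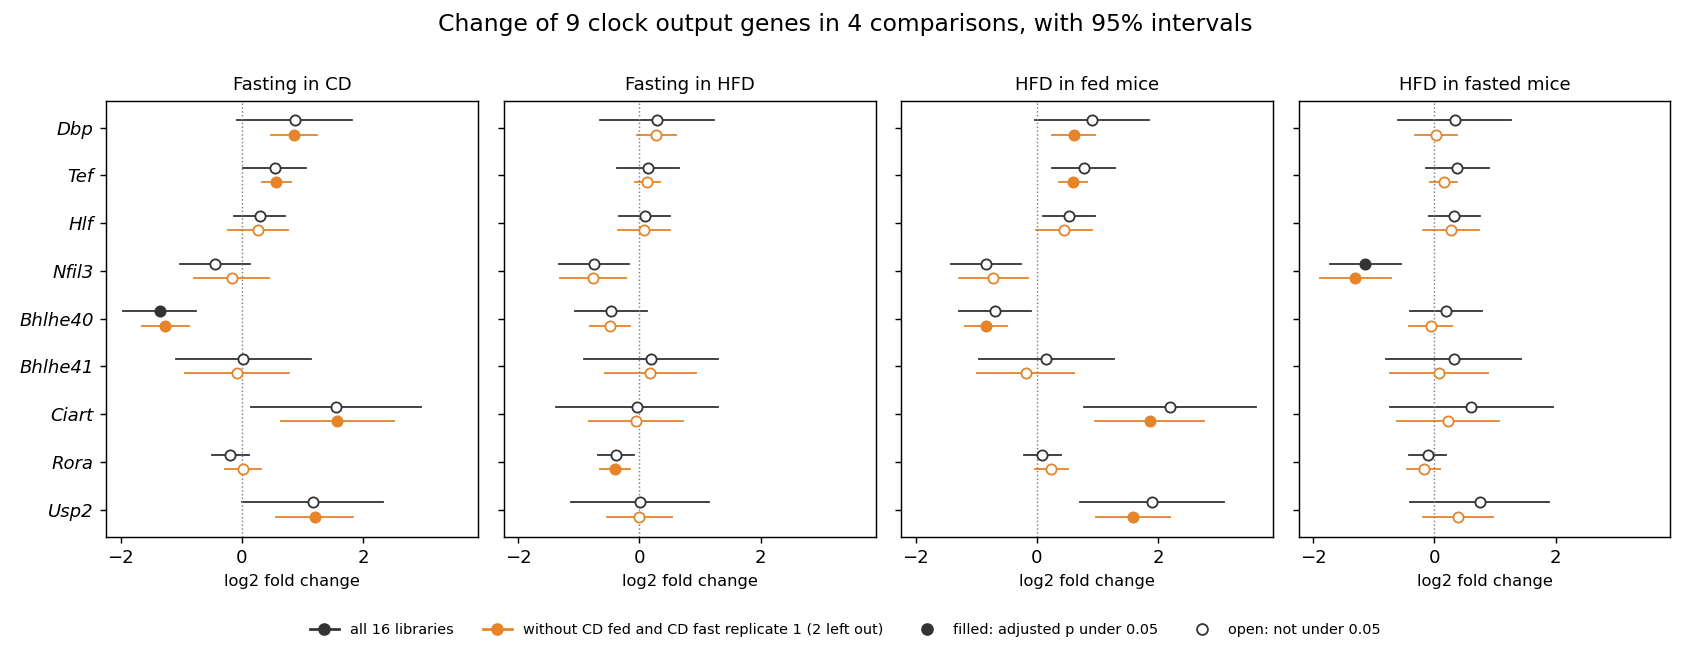
Log2 fold change (x axis) of the 9 genes in 4 comparisons with 95% intervals, with all 16 libraries (dark) and without replicate 1 of CD fed and of CD fast (orange). Filled points have an adjusted p under 0.05, and with all libraries these are Bhlhe40 for fasting in CD and Nfil3 for HFD in fasted mice.

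Across the 9 genes, libraries of compared groups did not overlap for 4 genes with HFD in fed mice (Tef, Ciart and Usp2 above, Nfil3 below), where 15.7% of all genes did not overlap. With fasting the count was 1 of 9 in CD (Bhlhe40, background 25.4%) and 2 of 9 in HFD (Bhlhe40 and Rora, background 16.7%), and with HFD in fasted mice it was 0 of 9 (background 14.0%). The median log2 fold change of the 9 genes with HFD in fed mice was 0.53, against 0.01 over all genes. It was 0.30 against -0.01 with fasting in CD, 0.01 against 0.01 with fasting in HFD and 0.33 against 0.01 with HFD in fasted mice. Without single libraries the median was between 0.17 (without replicate 3 of CD fast) and 0.41 (without replicate 2 of CD fast) for fasting in CD, and between -0.14 (without replicate 1 of HFD fast) and 0.13 (without replicate 3 of HFD fed) for fasting in HFD. That for HFD in fasted mice fell to 0.072 without replicate 1 of CD fast alone and was 0.073 without the pair. Fasting in CD and HFD in fed mice share the CD fed libraries, so their values are not independent. Relative to CD fed, the log2 fold changes of CD fast and HFD fed were 1.55 and 2.20 for Ciart, 1.17 and 1.90 for Usp2, 0.87 and 0.91 for Dbp, 0.54 and 0.77 for Tef, 0.30 and 0.53 for Hlf, -0.44 and -0.84 for Nfil3 and -1.35 and -0.69 for Bhlhe40. They were 0.03 and 0.16 for Bhlhe41, and for Rora they had opposite signs, at -0.19 and 0.09.

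The core clock genes were read from the same fit as a list of 11 genes outside the 9. With fasting in CD 1 of 11 passed where 25.2% of all genes did. It was Arntl, the partner of CLOCK, which was lower (log2 fold change -1.30, SE 0.42, adjusted p = 0.0330). With HFD in fed mice Arntl was again the only gene of the list called (-1.82, SE 0.42, adjusted p = 0.0185), against 7.50% of all genes. It was at 24.2, 11.6, 7.04 and 11.7 CPM in CD fed, at 11.4, 4.35, 3.96 and 2.50 in CD fast, at 5.36, 2.39, 3.82 and 3.89 in HFD fed and at 2.60, 3.49, 2.89 and 2.48 in HFD fast. Every HFD fed library was therefore below every CD fed library, and replicate 1 of both CD groups, lowest for most output genes, was the highest for Arntl. With fasting in HFD 1 of 11 passed (8.86% of all genes), Per2, a repressor of the loop, which was higher (1.07, SE 0.30, adjusted p = 0.0371), and with HFD in fasted mice 0 of 11 passed, against a background of 7.70%, and 3 were at an unadjusted p under 0.05. The interaction was called for 0 of 11, against a background of 2.59%, and 1 was at an unadjusted p under 0.05. The median log2 fold change of the list was -0.01 upon fasting in CD and -0.27 upon fasting in HFD. Between diets it was 0.26 in fed and 0.10 in fasted mice, and the latter turned to -0.035 without the pair of CD libraries, as that upon fasting in CD turned to 0.054. Without the pair of CD libraries, Per1, Per3 and Cry2 also passed as higher with fasting in CD (background 17.6%), and Per3 with HFD in fed mice (background 5.79%). Per3 was at 4.65, 16.8, 22.1 and 17.1 CPM in CD fed and at 6.34, 33.8, 35.6 and 56.2 in CD fast, the same order of libraries at its low end as Dbp and Tef.

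**Figure D4:**
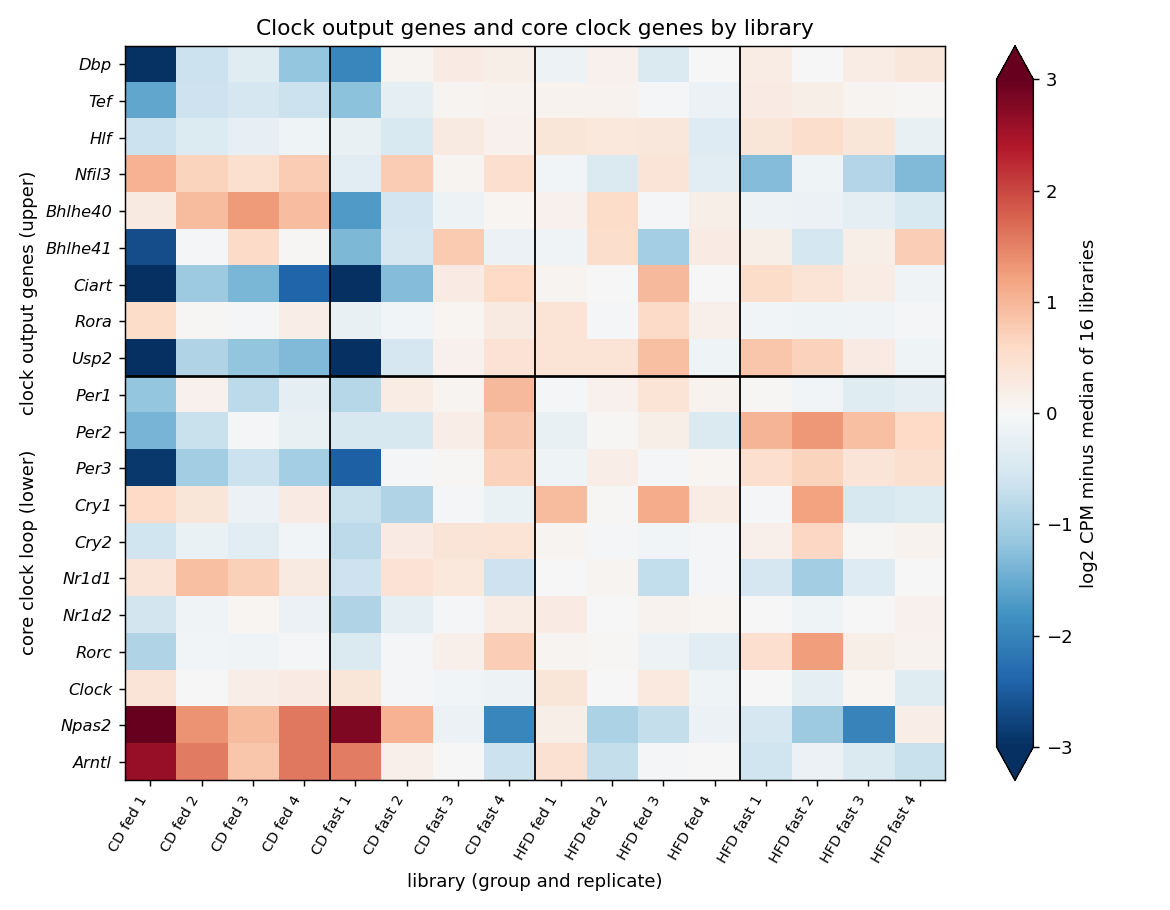
Log2 CPM of the 9 output genes (upper rows) and 11 core clock genes (lower rows) in each of the 16 libraries (columns), relative to the gene's median over the libraries. Blue is lower and red higher, and the scale is limited to 3 in either direction. Replicate 1 of CD fed and of CD fast are blue for Dbp, Ciart, Usp2 and Per3 and red for Arntl and Npas2.

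The ratio of Ciart to Arntl, a repressor and a component of the complex it represses, was higher in both HFD groups than in CD fed. It was 0.0361, 0.732, 0.995 and 0.292 in CD fed and 0.132, 1.69, 5.40 and 11 in CD fast. It was between 3.59 and 9.23 in HFD fed and between 6.75 and 10.2 in HFD fast. Every HFD library was above every CD fed library, whereas CD fast ranged from below most CD fed libraries to above all HFD libraries. Every HFD library was also above every CD fed library for Ciart and below for Arntl, so the separation of the ratio follows from those levels. Like the ratios to Nfil3, this ratio and the next are given as a description with no test. Bhlhe40 over Dbp was 8.35, 2.68, 2.75 and 3.75 in CD fed and at most 1.18 in every other group.

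Genes known as targets of the PAR bZIP factors in liver were read as a list of 9. With fasting in CD 3 of 9 were higher, where 13.7% of all genes were, and 0 lower. These were Alas1, the first enzyme of haem synthesis (1.91, SE 0.54, adjusted p = 0.0186), Nr1i3, the xenobiotic receptor CAR (1.15, SE 0.34, adjusted p = 0.0215), and Por, the electron donor of microsomal cytochromes P450 (1.18, SE 0.27, adjusted p = 0.00484). Without the pair of CD libraries Alas1 and Por still passed and Nr1i3 did not (adjusted p = 0.0721). With fasting in HFD Nr1i3 alone passed (1.12, SE 0.34, adjusted p = 0.0498), and with HFD in fed mice Por alone did (1.30, SE 0.27, adjusted p = 0.00889), against 8.86% and 7.50% of all genes. Without the pair Nr1i3 was no longer called with fasting in HFD (adjusted p = 0.0513), whereas Alas1 was (1.32, SE 0.31, adjusted p = 0.0190), and Por was still the gene called with HFD in fed mice. The interaction was called for none of the 9 with all libraries (2.59% of all genes), with 1 at an unadjusted p under 0.05. Without the pair it was called for Por (-1.42, SE 0.25, adjusted p = 0.0145), where 2.06% of all genes were called. Por was at 238, 424, 305 and 285 CPM in CD fed and at 648, 668, 945 and 825 CPM in HFD fed, with no overlap. With HFD in fasted mice 0 of 9 passed, against 7.70% of all genes, and 0 of 9 had an unadjusted p under 0.05. The median log2 fold change of the list was -0.07 upon fasting in CD, although 3 of its members rose, and 0.33 upon fasting in HFD. Between diets it was 0.21 in fed and 0.37 in fasted mice. Without the pair the medians were -0.15 upon fasting in CD and, between diets, 0.087 in fed and 0.23 in fasted mice. The part of DBP, TEF and HLF in these changes, if any, was not tested.

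Of 8 further liver genes known to follow the clock, 3 fell with fasting in CD, where 11.5% of all genes did, and none rose. They were Rgs16, a regulator of G-protein signalling (-2.96, SE 0.47, adjusted p = 0.000418), Klf10, a transcriptional repressor (-1.66, SE 0.31, adjusted p = 0.00146), and Elovl3, a fatty acid elongase (-1.77, SE 0.37, adjusted p = 0.00288). Rgs16 and Elovl3 also fell with fasting in HFD, by 2.13 and 1.22 on the log2 scale (adjusted p = 0.0107 and 0.0468), as 2 of 8 against 8.86% of all genes called. Without the pair the 3 genes still fell with fasting in CD, and Wee1, a cell cycle kinase, rose (0.99, SE 0.26, adjusted p = 0.0197). With fasting in HFD 5 of 8 then passed (9.33% of all genes), with Wee1 higher and Rgs16, Elovl3, Klf10 and the cell cycle inhibitor Cdkn1a lower. Between diets none of the 8 passed, against 7.50% of all genes in fed and 7.70% in fasted mice. Of the 8, 1 gene in fed and 2 in fasted mice had an unadjusted p under 0.05. Without the pair 2 of 8 passed with HFD in fed mice (5.79% of all genes), both as higher, namely Cdkn1a (2.06, SE 0.49, adjusted p = 0.0260) and Wee1 (0.91, SE 0.25, adjusted p = 0.0453). Of these genes Klf10 had a profile near that of Bhlhe40, as given next.

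For each of the 9 genes, the genes most like it over the 16 libraries were found by Pearson's r of log2 CPM among 11004 genes with a mean of at least 100 counts. The libraries share groups, diets and the pair that stands apart, so r is given as a description, with its value over 14 libraries, without that pair, after it. For Dbp the closest were Per3 (0.96, 0.85) and Tef (0.95, 0.81), and for Tef they were Usp2 (0.98, 0.92) and Per3 (0.98, 0.91). Arntl was the most opposed gene of all to both Dbp (-0.90, -0.88) and Tef (-0.92, -0.89). Ciart and Usp2 were each other's closest gene (0.98, 0.94). Next came Tef for both Ciart (0.96, 0.87) and Usp2 (0.98, 0.92), and the most opposed gene was Cldn1 for both Ciart (-0.93, -0.81) and Usp2 (-0.93, -0.80). Hlf was closest to ENSMUSG00000035349, which had no symbol in the table used (0.93, 0.91), and Bbox1 (0.91, 0.89) and most opposed to Tubb2a (-0.86, -0.82). Nfil3 was closest to Gm11808 (0.94, 0.93) and Btd (0.90, 0.92) and most opposed to Zbtb37 (-0.82, -0.79). Bhlhe40 was closest to Stard4 (0.89, 0.89) and Klf10 (0.88, 0.81) and most opposed to Ccdc59 (-0.89, -0.82). For Rora they were Tbpl1 (0.83, 0.80), Zfp101 (0.83, 0.76) and, opposed, Prss36 (-0.86, -0.81). For Bhlhe41 the closest were Mex3d (0.85) and Dbp (0.82), but these were 0.67 and 0.30 without the pair, so they rested largely on those libraries, and the most opposed gene was Btg1 (-0.75, -0.45).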

How the data were processed

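Liver poly(A) RNA of 16 mice, 4 per group, was sequenced. Per the labels and the study's methods, the authors aligned 100 bp paired reads to GRCm38 with TopHat2 2.0.11 in first-strand mode, and counted reads per gene with featureCounts. The submitters' processing notes name CASAVA 1.8.4, and the methods give another version of it. The deposited values are raw counts, whole and not normalized. Neither the annotation release nor the strand setting of the counting is given in the sources used here.

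Of 46078 genes, 45229 were matched to a symbol, and positions and exon lengths came from GENCODE vM21 (GRCm38). The main test was the quasi-likelihood test of edgeR 4.0.16 in R 4.3.3, after filterByExpr (15075 genes) and TMM scaling, with 1 coefficient for each group (12 residual degrees of freedom) and Benjamini-Hochberg adjustment over the genes tested. The fit recovered 76% of 200 changed genes in data simulated for fasting in CD, with 3.19% false calls. Only those 200 genes were changed in the simulation, whereas in the data 25.2% of genes were called with fasting in CD. No library was made to stand apart in the simulation, so its rates need not hold for the data. DESeq2 1.42.0, limma-voom (limma 3.58.1), other scalings, filters and sets of libraries were alternatives. Promoter sequences are RefSeq's (GRCm38.p6). Total counts set a precision that covers counting error only. No sample was left out of the main fit. Its p values set a group difference against the spread between libraries. That spread was estimated over all 16 libraries, with the spread of other genes taken into account.

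The 9 genes and the gene lists were chosen with earlier results of these data known. Named in the text were all 9, listed genes called in at least 1 of the 4 comparisons, and the 2 most like and 1 least like gene of each. Per-library values of Per3 and the without-pair calls of Per1, Cry2, Wee1 and Cdkn1a were added after their values were seen.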

Additional observations from a re-analysis of the deposited data

Results flagged for a closer look

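Of the 36 sets of 4 libraries (9 genes in 4 groups) 3 held a library whose gap to its nearest neighbour was above Dixon's 95% critical value of 0.829 times the range, where chance gives about 1 in 20. Dbp in replicate 1 of CD fast was at 25.8 CPM, against 107 to 118 in the other 3 libraries. Hlf in replicate 4 of HFD fed was at 42.7 CPM, against 69.8 to 71.9. Ciart in replicate 3 of HFD fed was at 35.2 CPM, against 17.9 to 19.3. The cause of these values was not tested.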

How the results depend on the processing

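The fall of Bhlhe40 with fasting in CD passed under each alternative at the 0.05 threshold, with an adjusted p of 0.0195 when only the groups compared were fitted and of at most 0.0122 otherwise. Other counts moved. With fasting in CD 5 genes passed without both CD libraries numbered 1 (Bhlhe40, Ciart, Dbp, Tef, Usp2), where 17.6% of all genes did. With fasting in HFD 1 passed with DESeq2 (Nfil3, 13.3% of all genes called) and 1 without that pair (Rora, 9.33%). With HFD in fed mice the count of 0 (7.50% of all genes called) became 4 with DESeq2 (11.7%) and 1 with limma-voom (7.28%). It became 3 under total count scaling (8.83%), 1 under upper quartile scaling (7.67%) and 1 with no count filter (3.70%). With the replicate number as a block it was 1 (8.01%). It was 4 when only the groups compared were fitted (7.66%) and 5 without the pair (5.79%). With HFD in fasted mice the count of 1 (7.70% of all genes called) became 0 when only the groups compared were fitted (0.623%). It also became 0 at a threshold of 0.01, for which the share of all genes is not given here. Leaving out each library in turn gave 1 to 5 genes for fasting in CD and 0 to 1 for fasting in HFD. It gave 0 to 4 for HFD in fed mice and 0 to 1 for HFD in fasted mice. The counts of 5 and 4 were both without CD fast replicate 1, where 21.6% and 8.04% of all genes were called. The count of 1 for fasting in HFD was without HFD fast replicate 2 (8.26%). For HFD in fasted mice 0 passed without CD fast replicate 2 (4.61%) and without HFD fast replicate 3 (3.61%) or 4 (3.51%). The cause of these shifts was not tested.

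Total count scaling moved the median of all genes for HFD in fasted mice to 0.17 from 0.01, with 12.3% of genes higher and 1.66% lower against 3.05% and 4.65%.

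The reversals were of changes that were called in neither fit. Without the pair they were -0.062 for Bhlhe40 with HFD in fasted mice, -0.076 and -0.18 for Bhlhe41 with fasting in CD and with HFD in fed mice, 0.018 for Rora with fasting in CD and -0.00016 for Usp2 with fasting in HFD. Under total count scaling they were -0.020 for Bhlhe41 with fasting in CD, 0.0075 for Ciart with fasting in HFD and 0.056 for Rora with HFD in fasted mice. With limma-voom they were -0.020 for the Bhlhe41 interaction and 0.0060 for Ciart with fasting in HFD. Leaving out each library in turn, the ranges that crossed 0 were -0.059 to 0.23 for Hlf, -0.039 to 0.41 for Bhlhe41, -0.14 to 0.26 for Ciart and -0.14 to 0.20 for Usp2 with fasting in HFD. They were -0.46 to 0.37 for Bhlhe41 with fasting in CD, -0.19 to 0.50 for Bhlhe41 and -0.014 to 0.23 for Rora with HFD in fed mice, -0.064 to 0.42 for Bhlhe40 with HFD in fasted mice and -0.17 to 0.64 for the Bhlhe41 interaction.

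In the main fit the replicate numbers were not taken to pair the samples. Of 24 same-numbered pairs, 8 had correlated deviations over 0.1 (range -0.24 to 0.66). Within a diet all 8 same-numbered pairs were above 0 (0.052 to 0.66). Over all groups the same number correlated best in 18 of 48 cases. Whether the numbers pair samples within a diet was not tested, since the block fitted here ties a number across both diets. With the replicate number as a block, 1 gene passed with HFD in fed mice (Usp2, adjusted p = 0.0483), where 8.01% of all genes were called. Ciart with fasting in HFD then turned to 0.095. The block changed no other call of the 9 genes, and the other lists were not read with it.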
